A study of Mus musculus with 4 samples.

Results

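Colonic epithelial cells of Stat4-/- mice and of wild-type mice were compared in the presence of leukemia inhibitory factor (LIF), with 1 RNA sequencing library on each side. The libraries were chosen by their labels (genotype Stat4-/- or wild type, treatment LIF) and are 2 of the 4 in the series. The other 2 are the control libraries of the same genotypes, which received no LIF and are shown beside the LIF libraries. The groups are Stat4-/- with LIF, wild type with LIF, Stat4-/- control and wild-type control. All 4 are labelled C57BL/6, and all were colon cells plated on Matrigel and left for 24 h to attach, after which loose material was washed off. LIF was given at 20 ng/ml, and the labels give neither the duration for a library nor the age or number of the mice. Values are in FPKM, fragment counts scaled to transcript length and to library depth. This scaling does not adjust for differences in RNA composition between libraries. Median-of-ratios scaling, a further adjustment between libraries, had factors of 0.993 for Stat4-/- LIF and 1.006 for wild-type LIF. Of 17604 listed genes, 12274 had a mean of at least 1 FPKM over the 4 libraries and were compared. The difference of a gene is the log2 of (Stat4-/- FPKM + 1) over (wild-type FPKM + 1), so a positive value means higher in the Stat4-/- library, and every count of genes at least, past or within a given fold is taken on this FPKM + 1 scale. Only a fold printed for a sum of copies is the plain ratio of FPKM values, and a gene at low levels can exceed a fold as a plain ratio without being counted. The design text speaks of duplicates, but each group has 1 column of values and 1 labelled sample, so no difference here has a replicate check and none carries a test.

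LIF belongs to the interleukin-6 family of cytokines. It binds the LIF receptor, which pairs with gp130 (gene Il6st) and activates JAK kinases, chiefly leading to phosphorylation of STAT3, and STAT3 induces its own brake, Socs3. STAT4 is best known in T cells and natural killer cells, where interleukin-12 activates it and it drives interferon-gamma production. Interferons in turn act through transcription factors on interferon-response elements in the promoters of antiviral, guanylate-binding and antigen-presentation genes, and the colonic epithelium answers to them.

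The targeted gene went with the genotype labels. Stat4 (ENSMUSG00000062939, mm10 chromosome 1, 51987148 to 52107189) was at 2.98 FPKM in Stat4-/- LIF and 20.5 FPKM in wild-type LIF, and at 2.01 FPKM in Stat4-/- control and 19.7 FPKM in wild-type control. Other values did not go with a single shared background. The Y-linked genes Eif2s3y and Ddx3y were at 0.10 and 0.07 FPKM in Stat4-/- LIF, against 7.69 and 6.34 FPKM in wild-type LIF, and Kdm5d and Uty were at 0.01 FPKM each in Stat4-/- LIF, against 1.45 and 1.19 FPKM in wild-type LIF. Among 21 compared genes of a list known to vary between inbred mouse strains, 4 were at least 2-fold apart: Zhx2, Ren2, H2-L and Oas1g. Zhx2, a transcriptional repressor with a well-known strain-dependent loss of expression, stood at 7.62 FPKM in Stat4-/- LIF and 0.25 FPKM in wild-type LIF. Ren2, a renin gene that some strains carry and others lack, stood at 0.03 FPKM in Stat4-/- LIF and 2.26 FPKM in wild-type LIF. The control libraries showed the same pattern, with Eif2s3y at 0.02 FPKM in Stat4-/- and 6.68 FPKM in wild type, and Zhx2 at 7.77 FPKM in Stat4-/- and 0.37 FPKM in wild type. Genotype at Stat4, the sex of the mice and any difference in strain background therefore cannot be told apart in what follows.

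Epithelial transcripts dominated both LIF libraries. The keratin gene Krt8 was at 2972 FPKM in Stat4-/- LIF and 3138 FPKM in wild-type LIF, and the adhesion gene Epcam at 464 and 500.3 FPKM. Transcripts of other cells were present in both: the fibroblast gene Dcn was at 140.4 FPKM in Stat4-/- LIF and 143 FPKM in wild-type LIF, the endothelial gene Pecam1 at 65.6 and 55.2 FPKM, and the pan-leukocyte gene Ptprc at 5.43 and 3.74 FPKM. Depth, estimated from the steps of low FPKM values, was about 27.4 M fragments (M standing for mega) for Stat4-/- LIF and 21.7 M for wild-type LIF, at which 1 fragment on a transcript of 2 kb is worth 0.0183 and 0.0230 FPKM.

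Most genes stood at nearly the same level in both libraries. Of the 12274 genes, 9634 (78.5%) were within 1.2-fold, and the median difference was -0.02. At least 2-fold higher in Stat4-/- LIF were 36 genes, or 0.293% of those compared, and at least 2-fold lower were 56, or 0.456%. At 1.5-fold there were 197 higher genes (1.61%) and 270 lower genes (2.2%), and 5653 genes (46.1%) lay above 0 and 6564 (53.5%) below it. These shares are the background for the gene groups described next. Only 17 of the 36 higher and 25 of the 56 lower genes had a mean of at least 5 FPKM. In 8 of the 36 the wild-type LIF level was under 1 FPKM, and in 16 of the 56 the Stat4-/- LIF level was, so these genes entered the comparison mainly through the libraries in which they were high. At the edge of the expression limit, Klf12 and Zfp810 had a mean of exactly 1 FPKM and were kept, with differences of 0.08 and -0.31, and Fam35a and Spock3 lay just under it with differences of -0.12 and -0.08.

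The genes high in Stat4-/- LIF were led by interferon-inducible and MHC genes. With a mean level of 5 FPKM or more, predicted genes and small RNAs aside, the highest were Tmem254b, the MHC class I gene H2-L, the chemokine gene Cxcl10, the ubiquitin-like modifier gene Ubd, the GTPase gene Iigp1, the B cell receptor gene Cd79a, H2-D1, and then Gbp4, Tgtp2, Gbp5, Ifit3, Gbp6, Gbp2, Ifi44l and Gbp3. Their differences ran downward to 1.04 for Gbp3. All words of Tmem254b recur in other genes, and the 3 Tmem254 copies summed to 10.5 FPKM in Stat4-/- LIF and 9.23 FPKM in wild-type LIF, 1.13-fold higher in Stat4-/- LIF. Of all 36 genes, 13 belonged to the interferon, MHC, peptide-loading and chemokine lists and none to the lists of epithelial lineages. Of the 12274 compared genes, the former held 40 antiviral, 10 guanylate-binding, 8 immunity-related GTPase, 22 class I, 10 class II, 13 peptide-loading and 26 chemokine genes. The latter held 19 goblet, 15 enteroendocrine, 4 tuft, 18 transport and 20 brush border genes. The lowest were Oas1a, Oas1g, Jchain, Stat4, the calcium channel gene Trpv6, Ly6c2, Igsf23, Rpl37rt, the cytokine gene Il18, the goblet cell genes Rep15 and Spink4, the prostaglandin-degrading enzyme gene Hpgd, Fam3b, Mettl7b and Sval1, with differences from -5.48 to -1.17. Of all 56 lower genes, 6 belonged to the epithelial lineage lists and none to those interferon, MHC, peptide-loading and chemokine lists, among which the OAS synthetases were not counted. That separate antiviral list held 2 of the 56, Oas1a and Oas1g. Over all compared genes 0.293% were at least 2-fold higher and 0.456% lower. A count of none in lists of these sizes is therefore near the background.

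**Figure D1:**
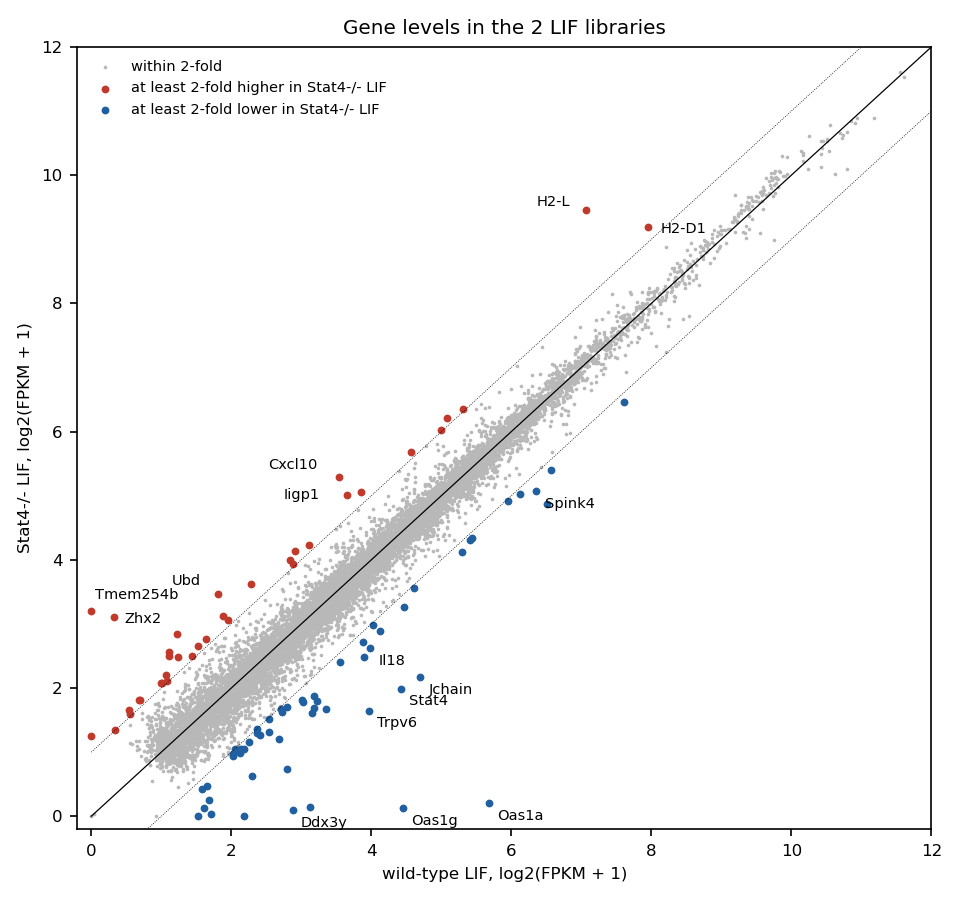
Each point is 1 of 12274 genes, with its level in the wild-type LIF library across and in the Stat4-/- LIF library upward, both as log2(FPKM + 1). Red points are the 36 genes at least 2-fold higher in Stat4-/- LIF, blue points the 56 at least 2-fold lower, the solid line marks equal levels and the dotted lines a 2-fold difference. Most points lie along the line of equal levels, and Oas1a and Oas1g lie farthest below it.

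Guanylate-binding proteins, interferon-induced GTPases that attack intracellular pathogens, had the highest median of the lists with at least 4 compared genes. Of 11 Gbp genes, 10 were compared and all 10 were higher in Stat4-/- LIF, 9 of them at least 1.5-fold and 5 at least 2-fold, with a median difference of 1.02. Gbp3 was at 80.9 FPKM in Stat4-/- LIF and 38.7 FPKM in wild-type LIF, and Gbp2 at 50.1 FPKM in Stat4-/- LIF and 22.7 FPKM in wild-type LIF. Gbp2b stood at 41.0 and 20.1 FPKM, just short of 2-fold on the scale used. Other members stood at lower levels, Gbp6 at 17.8 FPKM in Stat4-/- LIF and 7.67 FPKM in wild-type LIF, Gbp4 at 16.5 and 6.53 FPKM, Gbp5 at 15.04 and 6.16 FPKM, and Gbp10 at 8.02 and 3.79 FPKM. Gbp8 was at 2.37 FPKM in Stat4-/- LIF and 0.92 FPKM in wild-type LIF. Gbp7 (17.4 and 11.0 FPKM) and Gbp9 (17.7 and 12.2 FPKM) were the least apart. Gbp11 was under the expression limit, at 0.30 FPKM in Stat4-/- LIF and 0.05 FPKM in wild-type LIF. In the control libraries the 10 compared genes were likewise all higher in Stat4-/-, with Gbp2 at 42.3 FPKM in Stat4-/- and 17.2 FPKM in wild type and a list median of 0.98. Gbp6 and Gbp10 share 57.9% and 85.0% of their 31-base sequence words with other listed genes, so reads may be split between copies. With a pseudocount of 0.1 FPKM 8 Gbp genes passed 2-fold, and with 5 FPKM none did and 6 passed 1.5-fold. A pseudocount cannot change the sign of a difference.

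Immunity-related GTPases, which disrupt pathogen vacuoles, were higher in 7 of 8 members, all 7 by at least 1.5-fold, with a median of 0.79. Iigp1 was at 31.3 FPKM in Stat4-/- LIF and 11.5 FPKM in wild-type LIF, and at 20.6 and 9.30 FPKM in the control libraries of the same genotypes. Igtp stood at 53.9 FPKM in Stat4-/- LIF and 26.6 FPKM in wild-type LIF, Ifi47 at 22.9 and 11.7 FPKM, Irgm1 at 73.2 and 46.2 FPKM, and Irgm2 at 34.1 and 21.6 FPKM. Tgtp1 and Tgtp2 are near-identical copies whose sum was 51.0 FPKM in Stat4-/- LIF and 25.5 FPKM in wild-type LIF. The exception was Gvin1, at 3.06 FPKM in Stat4-/- LIF and 5.32 FPKM in wild-type LIF, of whose words 99.5% occur in other listed genes.

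Interferon-stimulated antiviral genes were higher in 39 of 40 members, 15 of them at least 1.5-fold and 1 at least 2-fold, with a median of 0.47. Ifit3, a member of the family that binds viral RNA, was at 72.8 FPKM in Stat4-/- LIF and 33.0 FPKM in wild-type LIF, and together with its copy Ifit3b at 110.2 and 54.2 FPKM. Cmpk2 stood at 22.1 FPKM in Stat4-/- LIF and 10.7 FPKM in wild-type LIF, the nucleic acid sensor gene Zbp1 at 97.5 and 55.9 FPKM, and the ubiquitin-like Isg15 at 198 and 125 FPKM. The size differed among members known for the same family of cytokines. The transcription factor genes lay toward the lower end: Irf8 was at 18.9 FPKM in Stat4-/- LIF and 12.9 FPKM in wild-type LIF, Irf1 at 70.4 and 51.7 FPKM, Stat2 at 39.9 and 29.9 FPKM, Irf7 at 131 and 102 FPKM, and Irf9 at 74.0 and 62.0 FPKM. Trim25 (75.54 and 75.02 FPKM) and Ifitm1 (12.8 and 13.1 FPKM) were level between the libraries. The interferon genes Ifng, Ifnb1 and Ifnl3 were under the expression limit: Ifng was listed at 0 in Stat4-/- LIF and at 0.04 FPKM in wild-type LIF, Ifnb1 at 0.52 and 0.06 FPKM, and Ifnl3 at 0.31 FPKM in Stat4-/- LIF and 0 in wild-type LIF.

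**Figure D2:**
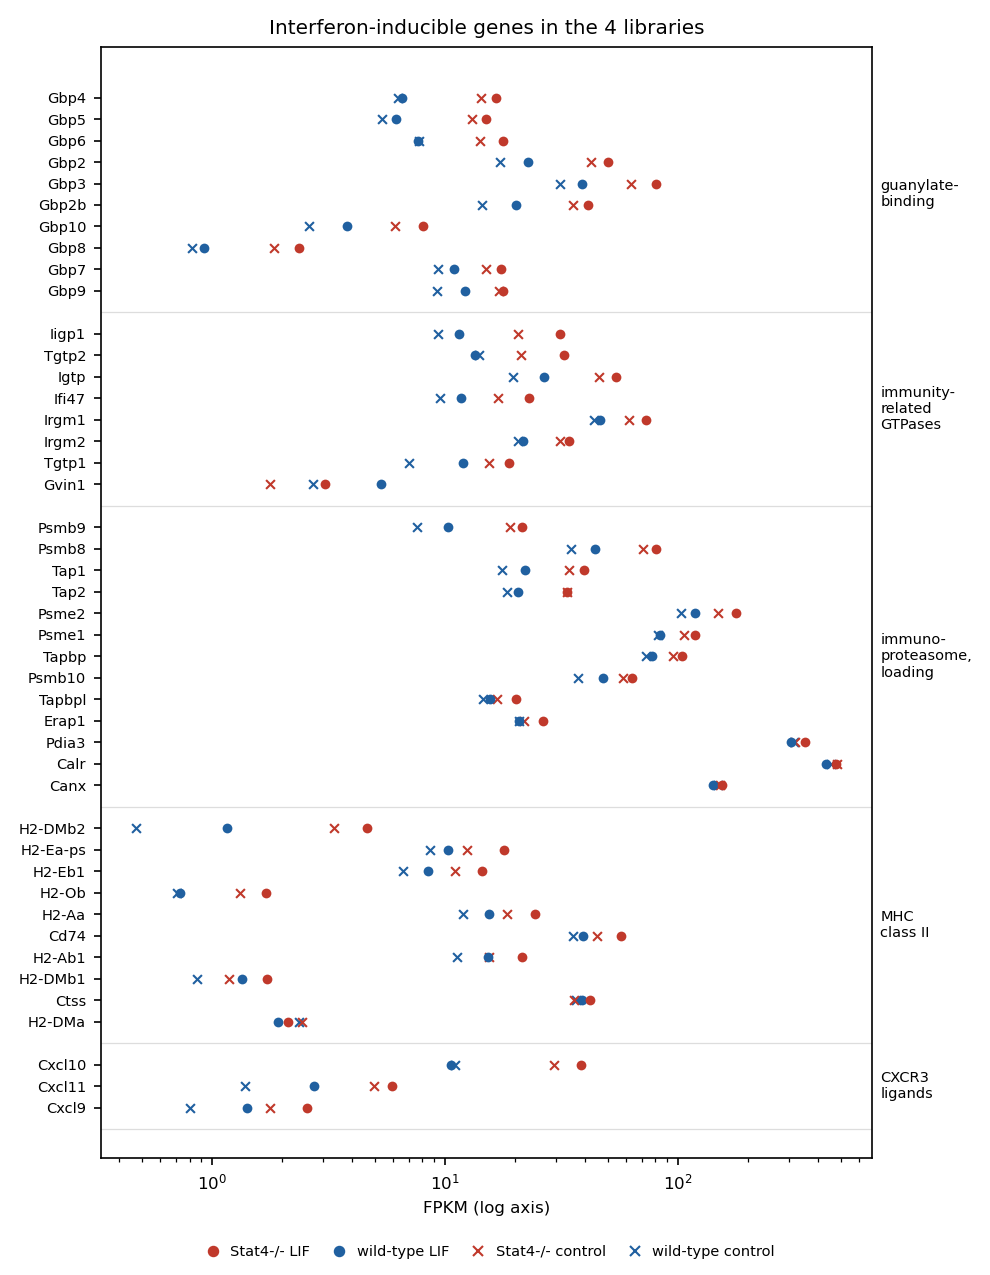
FPKM on a log axis for interferon-inducible genes by group, 1 row per gene, in all 4 libraries (circles with LIF, crosses without, red for Stat4-/-, blue for wild type). The red circle lies right of the blue circle in every row except Gvin1, and Gbp2 is drawn at 50.1 FPKM for Stat4-/- LIF and 22.7 FPKM for wild-type LIF.

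Promoters of interferon-inducible genes carry binding motifs for the transcription factors that interferons activate, and they are printed because these genes lead the higher group. The sequences run from 250 bases before to 50 bases after the annotated start, 5′ to 3′ on the gene's strand, from RefSeq (GRCm38.p6), and capitals mark the motifs. The gamma-activated sequence was searched as TTCNNNGAA and the interferon-stimulated response element as GAAA, any 2 bases and GAAA again, both on both strands. Of the 8 interferon-list genes at least 2-fold higher, 5 had an entry, and the first 4 of these in order of difference are shown, after Cxcl10, which was added once its values had been seen.
Cxcl10 (chr5:92348840-92349139, minus strand): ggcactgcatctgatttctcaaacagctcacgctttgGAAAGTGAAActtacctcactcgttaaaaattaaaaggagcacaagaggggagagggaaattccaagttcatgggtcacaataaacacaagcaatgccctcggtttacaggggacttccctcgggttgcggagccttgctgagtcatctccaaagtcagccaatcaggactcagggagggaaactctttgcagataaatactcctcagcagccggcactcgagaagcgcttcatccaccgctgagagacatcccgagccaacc
Tgtp2 (chr11:49064163-49064462, minus strand): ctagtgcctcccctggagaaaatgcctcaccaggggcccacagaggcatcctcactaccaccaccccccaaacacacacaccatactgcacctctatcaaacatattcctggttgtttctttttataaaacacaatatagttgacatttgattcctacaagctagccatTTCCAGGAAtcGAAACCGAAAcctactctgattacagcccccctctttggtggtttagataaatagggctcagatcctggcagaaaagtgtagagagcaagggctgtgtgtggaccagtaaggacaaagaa
Gbp5 (chr3:142496684-142496983, plus strand): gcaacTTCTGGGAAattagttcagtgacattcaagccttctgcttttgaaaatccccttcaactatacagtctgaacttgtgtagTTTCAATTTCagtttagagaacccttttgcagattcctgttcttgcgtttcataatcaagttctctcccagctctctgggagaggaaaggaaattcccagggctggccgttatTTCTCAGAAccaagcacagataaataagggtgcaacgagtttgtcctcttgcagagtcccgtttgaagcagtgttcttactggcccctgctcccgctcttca
Ifit3 (chr19:34583279-34583578, plus strand): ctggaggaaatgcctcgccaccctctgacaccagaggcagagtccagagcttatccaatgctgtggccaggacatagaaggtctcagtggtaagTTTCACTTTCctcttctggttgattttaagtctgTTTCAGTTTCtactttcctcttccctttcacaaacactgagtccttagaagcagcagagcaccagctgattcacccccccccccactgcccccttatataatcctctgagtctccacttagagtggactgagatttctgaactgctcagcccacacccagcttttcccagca
Gbp2 (chr3:142620413-142620712, plus strand): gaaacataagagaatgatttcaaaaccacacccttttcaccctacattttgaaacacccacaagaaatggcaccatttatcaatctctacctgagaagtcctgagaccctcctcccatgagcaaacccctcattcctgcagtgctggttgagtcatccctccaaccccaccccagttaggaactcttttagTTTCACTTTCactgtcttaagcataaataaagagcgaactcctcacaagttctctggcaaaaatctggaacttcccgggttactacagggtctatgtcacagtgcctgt

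Counted from the start site, Cxcl10 had a response element at -213 to -204. Tgtp2 had both motifs side by side, the gamma-activated sequence at -81 to -73 and the response element at -70 to -61. Gbp5 had the gamma-activated sequence at -245 to -237 and at -52 to -44, with a response element between them at -165 to -156. Ifit3 had response elements at -156 to -147 and -122 to -113, and Gbp2 had one at -59 to -50. No motif in these sequences overlapped another. Across all 32851 promoters of the same length, 8.3% held the gamma-activated sequence and 3.44% the response element, and counted by gene the shares were 9.55% and 3.99% of 27025 genes. Of 58 compared genes in the lists of antiviral genes, guanylate-binding proteins and immunity-related GTPases, 40 had an entry, and 13 of these (32.5%) held the gamma-activated sequence and 23 (57.5%) the response element. A match describes the letters in this window and says nothing of binding in these cells.

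MHC class I genes, which present peptides to CD8+ T cells, were higher in 20 of 22 members, with a median of 0.35, of which 5 were at least 1.5-fold and 2 at least 2-fold higher. H2-L was at 704 FPKM in Stat4-/- LIF and 133 FPKM in wild-type LIF, and at 685 and 115 FPKM in the control libraries. H2-D1 stood at 585 FPKM in Stat4-/- LIF and 246 FPKM in wild-type LIF, and the sum of both was 1289 and 379.8 FPKM, 3.39-fold higher in Stat4-/- LIF. The other abundant classical gene, H2-K1, was only at 457 FPKM in Stat4-/- LIF and 363 FPKM in wild-type LIF, and B2m, the light chain common to class I molecules, stood at 1243 and 984 FPKM. So the pair H2-D1 and H2-L stood apart from the rest of the list. Of the Qa-2 genes, H2-Q7 was at 44.8 FPKM in Stat4-/- LIF and 23.6 FPKM in wild-type LIF and H2-Q8 at 158 and 85.5 FPKM, but H2-Q9 at 23.8 and 21.5 FPKM and H2-Q6 at 57.1 and 57.3 FPKM. The remaining H2 class I genes spanned from H2-T24 (11.6 FPKM in Stat4-/- LIF and 7.58 FPKM in wild-type LIF) through H2-M2, H2-T22, H2-Q4, H2-T9, H2-Q1, H2-Q2, H2-T10, H2-M3, H2-Q10 and H2-T23 (176 and 163 FPKM). Mr1 was at 1.55 and 1.33 FPKM, and Cd1d1, which presents lipids, at 1.52 FPKM in Stat4-/- LIF and 2.20 FPKM in wild-type LIF. Nlrc5, the class I transactivator, stood at 4.47 FPKM in Stat4-/- LIF and 2.31 FPKM in wild-type LIF. These genes differ in sequence between MHC haplotypes, and how far alleles map differently to mm10 was not tested. H2-L was not matched to GENCODE M21, so its shared words were not measured, and H2-D1 shares 26.5% of its words with other listed genes.

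The machinery that cuts and loads class I peptides was higher in all 13 compared members, with a median of 0.42 and 4 members at least 1.5-fold higher. The interferon-inducible proteasome subunit genes Psmb9 and Psmb8 were at 21.3 and 80.7 FPKM in Stat4-/- LIF, against 10.3 and 43.9 FPKM in wild-type LIF. The peptide transporter genes Tap1 and Tap2 were at 39.5 and 33.5 FPKM in Stat4-/- LIF, against 22.1 and 20.6 FPKM in wild-type LIF. The general chaperones at the other end, Calr and Canx, were at 478 and 154 FPKM in Stat4-/- LIF, against 433 and 142 FPKM in wild-type LIF.

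MHC class II genes were higher in all 10 compared members of a list of 14, with a median of 0.58, 5 at least 1.5-fold and 1 at least 2-fold higher. The invariant chain gene Cd74 was at 57.2 FPKM in Stat4-/- LIF and 39.1 FPKM in wild-type LIF, H2-Aa at 24.3 and 15.4 FPKM, H2-Ab1 at 21.3 and 15.3 FPKM, and H2-Eb1 at 14.4 and 8.47 FPKM. H2-DMb2, a peptide-exchange subunit, was at 4.63 FPKM in Stat4-/- LIF and 1.16 FPKM in wild-type LIF, whereas H2-DMb1 (1.72 and 1.34 FPKM) and H2-DMa (2.11 and 1.92 FPKM) were closer. H2-Ob, a subunit known from B cells, was at 1.71 FPKM in Stat4-/- LIF and 0.73 FPKM in wild-type LIF, the pseudogene H2-Ea-ps at 17.95 and 10.29 FPKM, and the protease gene Ctss at 41.8 and 38.6 FPKM. The class II transactivator gene Ciita was under the expression limit, at 0.65 FPKM in Stat4-/- LIF and 0.38 FPKM in wild-type LIF. B cell genes were higher as well: Cd79a, Cd79b and Ms4a1 were at 11.3, 7.32 and 2.14 FPKM in Stat4-/- LIF, against 3.87, 2.86 and 0.45 FPKM in wild-type LIF. Their part in the class II values was not tested, and in bulk RNA more cells of a type and more RNA per cell cannot be told apart. With a pseudocount of 5 FPKM, 2 class II genes rather than 5 passed 1.5-fold.

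The 2'-5' oligoadenylate synthetases, enzymes of the antiviral response, divided within the family. Oas2 was at 5.12 FPKM in Stat4-/- LIF and 3.58 FPKM in wild-type LIF, Oas3 at 18.1 and 13.4 FPKM, Oasl2 at 81.7 and 60.9 FPKM, and Oasl1 at 81.5 and 69.8 FPKM. These 4 were higher like the other antiviral genes. The Oas1 copies were lower, and Oas1g is also a member of the strain-variable list: Oas1a was at 0.15 FPKM in Stat4-/- LIF and 50.3 FPKM in wild-type LIF, Oas1g at 0.09 and 20.9 FPKM, Oas1b at 3.60 and 7.71 FPKM, and Oas1c at 1.51 and 1.94 FPKM. Since 68.8% of the words of Oas1a and 55.1% of those of Oas1g recur elsewhere, the sum over 7 listed Oas1 genes is the safer value, and it was 5.35 FPKM in Stat4-/- LIF and 81.3 FPKM in wild-type LIF, 15.2-fold lower in Stat4-/- LIF. The control libraries held 4.84 FPKM in Stat4-/- and 74.4 FPKM in wild type.

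Chemokines and related growth factors were higher in 22 of 26 compared members, 10 at least 1.5-fold and 2 at least 2-fold, with a median of 0.55. The CXCR3 ligands, which draw activated T cells and are induced by interferon-gamma, were Cxcl10 at 38.3 FPKM in Stat4-/- LIF and 10.6 FPKM in wild-type LIF, Cxcl11 at 5.89 and 2.75 FPKM, and Cxcl9 at 2.55 and 1.41 FPKM. In the control libraries Cxcl10 was at 29.2 FPKM in Stat4-/- and 11.0 FPKM in wild type. Neutrophil-attracting chemokines were far more abundant and less far apart, with Cxcl1 at 469 FPKM in Stat4-/- LIF and 294 FPKM in wild-type LIF, Cxcl2 at 214 and 147 FPKM, and Cxcl5 at 104 and 69.5 FPKM. The monocyte chemokine Ccl2 stood at 283 FPKM in Stat4-/- LIF and 172 FPKM in wild-type LIF, and Ccl7 at 82.8 and 50.1 FPKM. Ccl21a was at 12.9 FPKM in Stat4-/- LIF and 6.00 FPKM in wild-type LIF, and the colony-stimulating factor genes Csf1, Csf2 and Csf3 were at 60.7, 3.96 and 15.2 FPKM in Stat4-/- LIF, against 40.4, 1.62 and 8.58 FPKM in wild-type LIF. Ccl3 was lower, at 2.14 FPKM in Stat4-/- LIF and 3.25 FPKM in wild-type LIF, while Ccl4, at 2.52 and 0.62 FPKM, was the only chemokine past 2-fold on the FPKM + 1 scale besides Cxcl10. With a pseudocount of 5 FPKM, 5 members rather than 10 were at least 1.5-fold higher.

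Subunits, inhibitors and targets of NF-kB, the main inflammatory transcription factor, were above 0 in 17 of 18 members but none was 1.5-fold apart, and the median was 0.17. The adhesion gene Icam1 led at 69.6 FPKM in Stat4-/- LIF and 46.7 FPKM in wild-type LIF, the inhibitor gene Nfkbia was at 161 and 125 FPKM, and Tnf at 7.57 and 7.23 FPKM. Interleukin-1 family and inflammasome genes lay on both sides, with 9 of 23 above 0. Il18, an epithelial cytokine that cooperates with interleukin-12, was at 5.14 FPKM in Stat4-/- LIF and 14.8 FPKM in wild-type LIF, and at 4.58 and 14.5 FPKM in the control libraries. Its soluble inhibitor gene Il18bp, which interferon-gamma induces, was at 8.02 FPKM in Stat4-/- LIF and 5.62 FPKM in wild-type LIF, and the receptor genes Il18r1 (11.1 and 11.0 FPKM) and Il18rap (5.24 and 5.16 FPKM) were level. The inflammasome sensor gene Naip1 was at 20.2 FPKM in Stat4-/- LIF and 31.8 FPKM in wild-type LIF. Il22, a cytokine of lymphoid cells that acts on epithelium through STAT3, was at 4.68 FPKM in Stat4-/- LIF and 1.70 FPKM in wild-type LIF, and at 7 and 1.52 FPKM without LIF.

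Of the STAT4 and interleukin-12 axis, 10 of 18 genes were compared, and beyond Stat4 and Il18 none was 1.5-fold apart. Interleukin-12 receptor genes were near the expression limit and not compared, Il12rb1 at 0.79 FPKM in Stat4-/- LIF and 0.54 FPKM in wild-type LIF and Il12rb2 at 0.84 and 1.17 FPKM. The T helper 1 factor gene Tbx21 was at 0.28 FPKM in Stat4-/- LIF and 0.17 FPKM in wild-type LIF. The interferon-gamma receptor genes Ifngr1 and Ifngr2 were at 83.9 and 34.7 FPKM in Stat4-/- LIF, against 97.7 and 40.6 FPKM in wild-type LIF.

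The pathway through which LIF itself signals differed little between genotypes. Among ligands, Lif was at 63.6 FPKM in Stat4-/- LIF and 45.4 FPKM in wild-type LIF, Il11 at 289 and 207 FPKM, and Il6 at 55.1 and 29.8 FPKM. These ligand levels are those of the cells' own transcripts, on top of the LIF that was added. Receptors were close to level: Il6st at 69.0 FPKM in Stat4-/- LIF and 61.9 FPKM in wild-type LIF, Lifr at 4.80 and 4.14 FPKM, Osmr at 31.02 and 28.39 FPKM, and Il6ra at 6.10 and 6.82 FPKM. Of 11 Janus kinase and STAT genes, only Stat4 was 1.5-fold apart. Stat3 was at 65.6 FPKM in Stat4-/- LIF and 61.2 FPKM in wild-type LIF, Stat5a at 3.52 and 3.28 FPKM, Stat5b at 9.67 and 10.6 FPKM, and Stat6 at 38.6 and 39.8 FPKM.

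Feedback inhibitors were above 0 in 10 of 13 members, with none 1.5-fold apart on the FPKM + 1 scale. Socs1, which restrains interferon receptors, had the largest difference, at 9.43 FPKM in Stat4-/- LIF and 6.16 FPKM in wild-type LIF. Socs3, which restrains gp130, was at 43.8 and 36.2 FPKM, and at 38.0 and 28.7 FPKM in the control libraries. Among 28 compared STAT3 target genes, 21 lay above 0 with a median of 0.11, and the 2 that were 1.5-fold apart were both lower. These were the acute-phase genes Saa1, at 31.7 FPKM in Stat4-/- LIF and 68.6 FPKM in wild-type LIF, and Saa2, at 2.19 and 5.52 FPKM. By contrast the antimicrobial lectins Reg3b (73.6 FPKM in Stat4-/- LIF and 72.4 FPKM in wild-type LIF) and Reg3g (33.5 and 31.7 FPKM) and the siderophore-binding gene Lcn2 (16.26 and 14.95 FPKM) were level. YAP, a growth regulator that gp130 signalling is known to activate in gut epithelium, was nearly level as Yap1, at 41.2 FPKM in Stat4-/- LIF and 35.0 FPKM in wild-type LIF. Of 28 YAP-TEAD genes, 21 lay below 0, with a median of -0.08. The target genes Ctgf (102 FPKM in Stat4-/- LIF and 131 FPKM in wild-type LIF), Clu (99.1 and 140.3 FPKM) and Msln (2.65 and 5.72 FPKM) were the lowest of them. Clu was level without LIF, at 170.1 FPKM in Stat4-/- control and 169 FPKM in wild-type control.

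Goblet cells secrete the mucus layer of the colon, and their genes had the lowest median of those lists, -0.60. Of 19 members, 17 lay below 0, 10 were at least 1.5-fold and 3 at least 2-fold lower in Stat4-/- LIF. The gel-forming mucin gene Muc2 was at 39.6 FPKM in Stat4-/- LIF and 68.0 FPKM in wild-type LIF, and at 48.9 and 81.0 FPKM in the control libraries. Secreted mucus proteins had like ratios, with Tff3 at 215 FPKM in Stat4-/- LIF and 350.0 FPKM in wild-type LIF, Fcgbp at 18.9 and 32.1 FPKM, Clca1 at 50.6 and 94.6 FPKM, and Zg16 at 150.3 and 296 FPKM. Spink4 stood at 32.7 FPKM in Stat4-/- LIF and 81.0 FPKM in wild-type LIF. Rep15 was at 2.66 and 8.10 FPKM with LIF but at 5.74 and 7.62 FPKM without it, while Ern2, the goblet cell form of an endoplasmic reticulum stress sensor, was at 0.95 and 3.06 FPKM with LIF. The factors that set the lineage were lower too, Atoh1 at 1.46 FPKM in Stat4-/- LIF and 2.63 FPKM in wild-type LIF and Spdef at 4.28 and 6.00 FPKM. Galnt12 (7.49 and 7.67 FPKM) and Creb3l1 (15.7 and 16.0 FPKM) were level, and Klk1 was at 104 and 89.0 FPKM. The summed level of all 19 was 890 FPKM in Stat4-/- LIF and 1423 FPKM in wild-type LIF.

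Hormone-producing enteroendocrine cells were represented by 15 compared genes, of which 14 lay below 0, with a median of -0.37, against -0.18 in the control libraries. Cck was at 18.9 FPKM in Stat4-/- LIF and 41.3 FPKM in wild-type LIF, and Pyy at 27.7 and 45.3 FPKM. The hormone genes Sst (46.6 and 61.3 FPKM), Sct (3.05 and 5.07 FPKM), Insl5 (7 and 9.22 FPKM) and Gcg (15.1 and 16.7 FPKM) were lower in Stat4-/- LIF too, as was the granule protein gene Chga, at 6.20 FPKM in Stat4-/- LIF and 7.62 FPKM in wild-type LIF. Pyy differed in the LIF pair but was level without LIF, at 41.3 FPKM in Stat4-/- control and 41.2 FPKM in wild-type control. Tuft cell genes gave 4 compared members, all below 0 and none 1.5-fold apart.

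**Figure D3:**
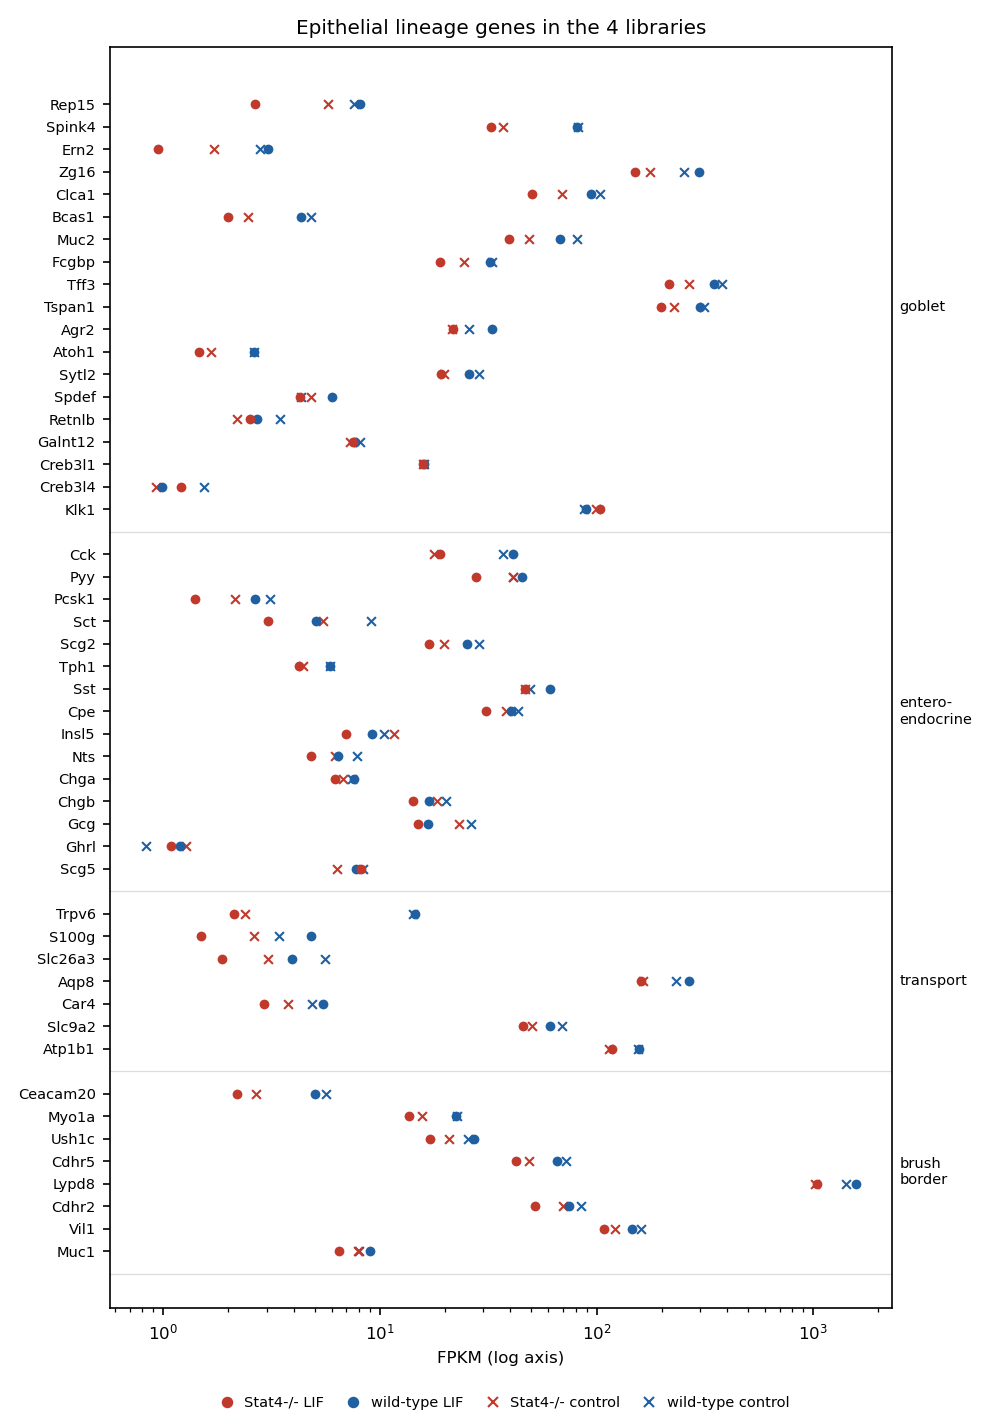
FPKM on a log axis for goblet, enteroendocrine, transport and brush border genes, 1 row per gene, in all 4 libraries (circles with LIF, crosses without, red for Stat4-/-, blue for wild type). All members of the goblet and enteroendocrine lists are drawn, and from the transport and brush border lists the 7 and 8 genes with the lowest differences. Most red circles lie left of the blue ones, with the widest gap for Trpv6.

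Absorptive colonocyte genes were unequal among themselves. Of 18 transport genes, 11 lay below 0, 5 were at least 1.5-fold and 2 at least 2-fold lower, and the median was -0.05. Trpv6, the apical calcium channel, was at 2.13 FPKM in Stat4-/- LIF and 14.6 FPKM in wild-type LIF, and at 2.38 and 14.2 FPKM without LIF. S100g, the calcium-binding protein that works with it, was at 1.5 FPKM in Stat4-/- LIF and 4.83 FPKM in wild-type LIF, and at 2.63 and 3.41 FPKM without LIF. The chloride-bicarbonate exchanger gene Slc26a3 was at 1.87 FPKM in Stat4-/- LIF and 3.91 FPKM in wild-type LIF, the water channel gene Aqp8 at 160.1 and 267 FPKM, and the carbonic anhydrase gene Car4 at 2.92 and 5.44 FPKM. Sodium transport and butyrate uptake genes did not follow them: Scnn1a was at 12.9 FPKM in Stat4-/- LIF and 13.3 FPKM in wild-type LIF, Slc16a1 at 20.2 and 20.9 FPKM, and Slc5a8 at 4.61 and 3.13 FPKM. The brush border and glycocalyx list was lower in 17 of 20 members, with a median of -0.22 and 5 members at least 1.5-fold lower. The intermicrovillar adhesion genes Cdhr5 and Cdhr2 were at 42.3 and 51.8 FPKM in Stat4-/- LIF, against 65.8 and 74.7 FPKM in wild-type LIF, and their partner Ush1c at 17.0 FPKM in Stat4-/- LIF and 27.1 FPKM in wild-type LIF. Myo1a was at 13.6 and 22.4 FPKM, Ceacam20 at 2.20 and 5.02 FPKM, and the actin bundler gene Vil1 at 109 and 147 FPKM, while ezrin, Ezr, was level at 427 and 418 FPKM. With a pseudocount of 5 FPKM, 1 brush border gene rather than 5 passed 1.5-fold.

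Other epithelial programs differed in how far apart the genotypes were. Of 20 keratin, junction and surface genes none was 1.5-fold apart on the FPKM + 1 scale, and of 12 stem and crypt base genes none was either, with Sox9 at 6.18 FPKM in Stat4-/- LIF and 5.16 FPKM in wild-type LIF. Cell cycle genes gave 0 of 20 at 1.5-fold, with Mki67 at 2.35 and 1.89 FPKM. In the fetal-like regeneration list 2 of 18 genes were at least 1.5-fold higher and 2 lower, and the Ly6 genes were unequal: Ly6a, an interferon-inducible surface protein, was at 129 FPKM in Stat4-/- LIF and 67.0 FPKM in wild-type LIF and Ly6e at 117 and 77.7 FPKM, but Ly6c2 at 2.24 and 8.09 FPKM. Of the words of Ly6c2, 23.3% are shared. Ly6c2 and the related Ly6c1 summed to 24.6 FPKM in Stat4-/- LIF and 27.5 FPKM in wild-type LIF. Anxa1 (1096 and 1203 FPKM) and F3 (627 and 580 FPKM) were nearly level. Small proline-rich genes were also divided, with 3 of 7 at least 1.5-fold higher and 2 lower, Sprr2h being at 48.7 FPKM in Stat4-/- LIF and 32.0 FPKM in wild-type LIF while the near-identical Sprr2a copies summed to 1213 and 1979 FPKM.

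Among enzymes and stress genes, single members stood out from lists that were otherwise level. Hpgd, which inactivates prostaglandins, was at 6.44 FPKM in Stat4-/- LIF and 16.5 FPKM in wild-type LIF, whereas the synthase gene Ptgs2 was at 527 and 488 FPKM and Ptges at 93.9 and 77.4 FPKM. Gsta1, a glutathione transferase gene, was at 41.2 FPKM in Stat4-/- LIF and 93.9 FPKM in wild-type LIF, but 92.9% of its words are shared, and Gsta4 was at 68.6 and 109 FPKM. In the same NRF2 list Slc7a11, the cystine importer, was at 14.9 FPKM in Stat4-/- LIF and 8.09 FPKM in wild-type LIF, and Hmox1 at 216 and 156 FPKM. The heat shock copies Hspa1a and Hspa1b summed to 149.6 FPKM in Stat4-/- LIF and 77.5 FPKM in wild-type LIF, and no other heat shock gene was 1.5-fold apart.

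Lists in which nearly all members leaned 1 way by small amounts were the unfolded protein response (18 of 19 above 0, median 0.30), with the chaperone gene Hspa5 at 1570.4 FPKM in Stat4-/- LIF and 1218 FPKM in wild-type LIF, and cytosolic ribosomal proteins (30 of 30 above 0, median 0.14). Cholesterol and fatty acid synthesis leaned the other way, with 21 of 27 below 0 and a median of -0.24. There Cyp51 was at 6.18 FPKM in Stat4-/- LIF and 11.0 FPKM in wild-type LIF, and Hmgcs1 at 24.4 and 37.0 FPKM. Matrix metalloproteinases and their inhibitors were divided, with 9 of 15 above 0, 6 below 0 and a median of 0.26. Mmp3 was very abundant, at 1258 FPKM in Stat4-/- LIF and 935 FPKM in wild-type LIF, as was Mmp10 at 991 and 799 FPKM. Mmp9 was at 5.30 and 2.64 FPKM. The inhibitor gene Timp2 was lower, at 21.4 FPKM in Stat4-/- LIF and 28.5 FPKM in wild-type LIF. Glycolysis and respiratory chain lists held no gene 1.5-fold apart.

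**Figure D4:**
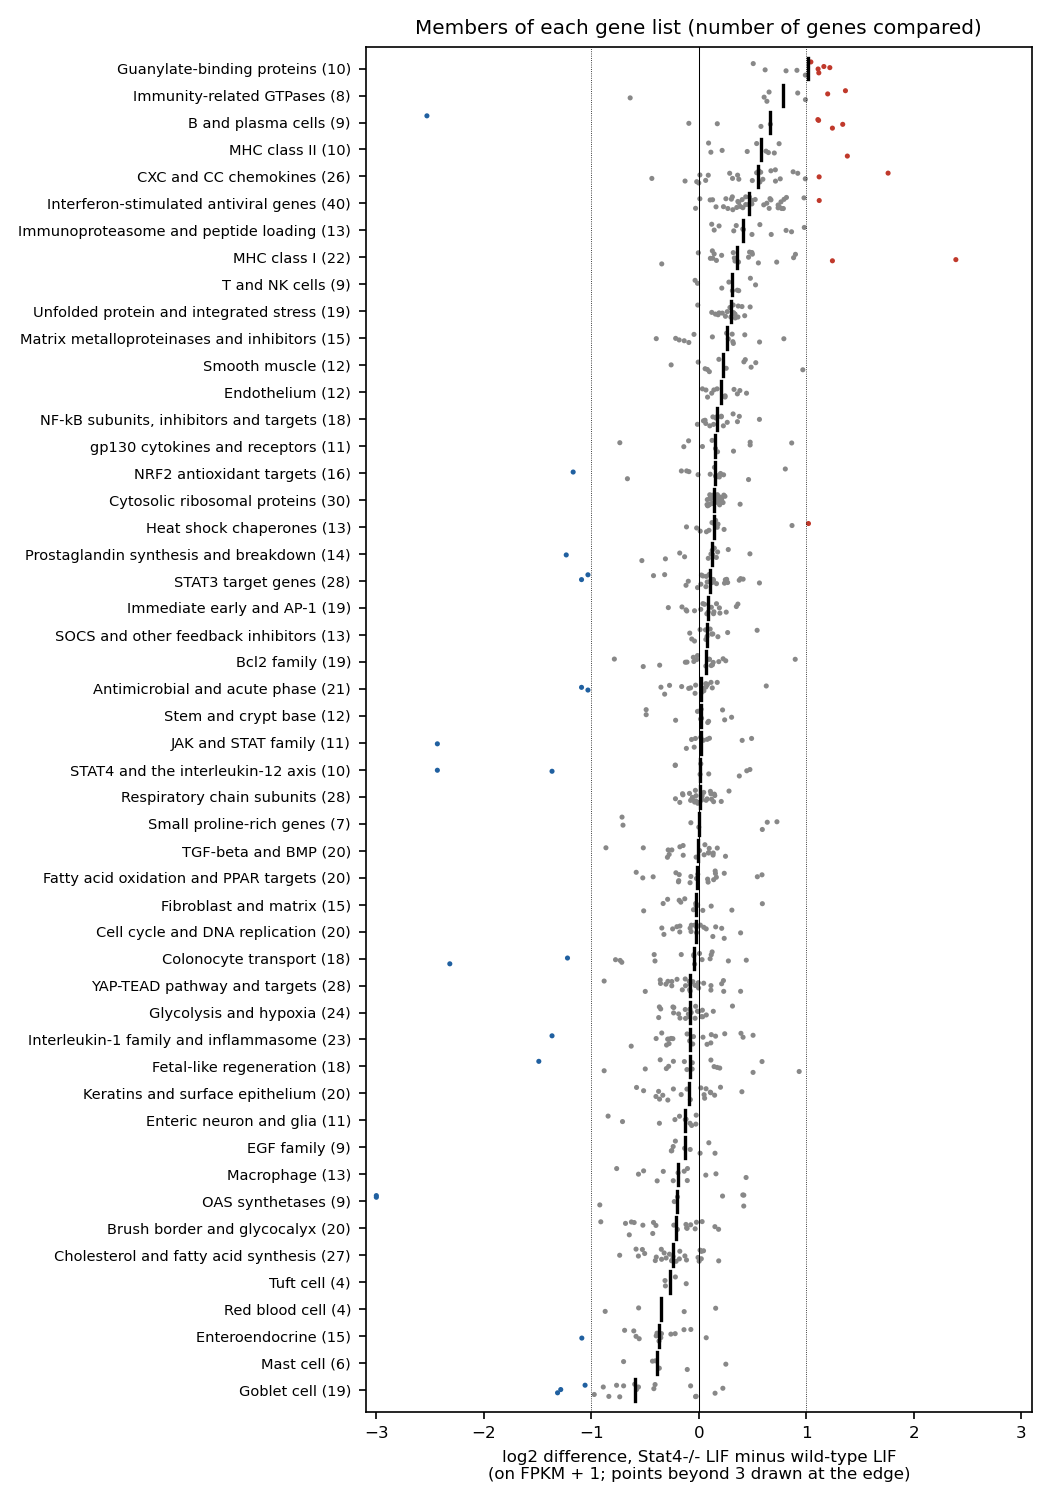
Log2 difference of Stat4-/- LIF minus wild-type LIF for each member of the gene lists with at least 4 compared genes, with the median as a black bar and lists ordered by it. Red and blue points are at least 2-fold higher or lower in Stat4-/- LIF, dotted lines mark 2-fold, and the sex-linked, strain-variable and chromosome 1 lists are left out. Guanylate-binding proteins are at the top with a median of 1.02 and goblet cell genes at the bottom with -0.60.

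Markers of cells other than epithelium are given as measured, since the cultures were not pure. B and plasma cell genes did not move as 1 group: 4 of 9 were at least 2-fold higher, but Jchain, the immunoglobulin joining chain of plasma cells, was at 3.50 FPKM in Stat4-/- LIF and 24.98 FPKM in wild-type LIF, and Mzb1, also of plasma cells, at 4.59 and 4.96 FPKM. The list median was 0.67, but when 5 FPKM was the lowest mean allowed only Cd79a and Jchain were left and it was -0.60. T and natural killer cell genes gave 7 of 9 above 0 and none 1.5-fold apart on the FPKM + 1 scale, their sum being 45.4 FPKM in Stat4-/- LIF and 33.0 FPKM in wild-type LIF, with Cd3e at 1.47 and 1.53 FPKM. Macrophage genes leaned the other way, with 10 of 13 below 0, Mrc1 at 10.2 FPKM in Stat4-/- LIF and 14.9 FPKM in wild-type LIF and Tyrobp at 4.70 and 8.68 FPKM. The mast cell sum was 49.3 FPKM in Stat4-/- LIF and 63.3 FPKM in wild-type LIF, and that of the enteric neuron and glia list 133 and 146 FPKM. Endothelial genes were above 0 in 12 of 12 (median 0.21), with Kdr at 67.2 and 49.1 FPKM, and smooth muscle genes in 10 of 12 (median 0.22), with Cnn1 at 26.5 and 13.1 FPKM. Fibroblast genes were nearly level, with a median of -0.03 and Col1a1 at 19.4 FPKM in Stat4-/- LIF and 24.6 FPKM in wild-type LIF. The part of these cells in the interferon, goblet and transport values was not tested.

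Genes near Stat4 on chromosome 1 are given because neighbours of a targeted locus can be inherited together with it. How far such a segment reached in these mice is not stated and was not tested. Of 24 compared neighbours in the list, which does not hold every gene of the region, 15 lay above 0 and 2 were at least 1.5-fold apart. Slc40a1, the iron exporter ferroportin, was at 6.94 FPKM in Stat4-/- LIF and 15.2 FPKM in wild-type LIF, and Hecw2 at 2.83 and 1.06 FPKM. Outside the list, 1700019D03Rik (chromosome 1, 52922324 to 53020179) was also at least 2-fold higher. It stood at 4.91 FPKM in Stat4-/- LIF and 1.15 FPKM in wild-type LIF, and at 4.13 and 0.75 FPKM in the control libraries.

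The control libraries, which share no library with the LIF pair, gave 39 genes (0.318%) past 2-fold on the high side and 35 (0.285%) on the low side in Stat4-/-. Of the 36 genes higher with LIF, 14 were also in the control list of 39, which is 38.9% of the LIF list and 35.9% of the control list. Of the 56 genes lower with LIF, 20 were among the 35 of the control list, or 35.7% and 57.1%. Counted by sign, 33 of the 36 and 49 of the 56 had the same sign without LIF, and 23 and 36 of them were at least 1.5-fold apart there, where 199 genes (1.62%) were 1.5-fold higher and 195 (1.59%) lower, with 48.5% above 0 and 51.2% below. Across genes, which are not replicates and share the 4 libraries' mapping and annotation, the differences of both pairs were correlated with Pearson's r at 0.61 and Spearman's rho at 0.53. Whether the LIF and control cultures of a genotype came from the same mice is not stated. By list, medians with and without LIF were close for guanylate-binding proteins (1.02 and 0.98), antiviral genes (0.47 and 0.45), peptide loading (0.42 and 0.38) and NF-kB genes (0.17 and 0.17). They were wider apart for chemokines (0.55 and 0.37), MHC class II (0.58 and 0.43), B and plasma cells (0.67 and 0.37), enteroendocrine genes (-0.37 and -0.18) and goblet genes (-0.60 and -0.46), and whether these differ could not be tested with 1 library per group.

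**Figure D5:**
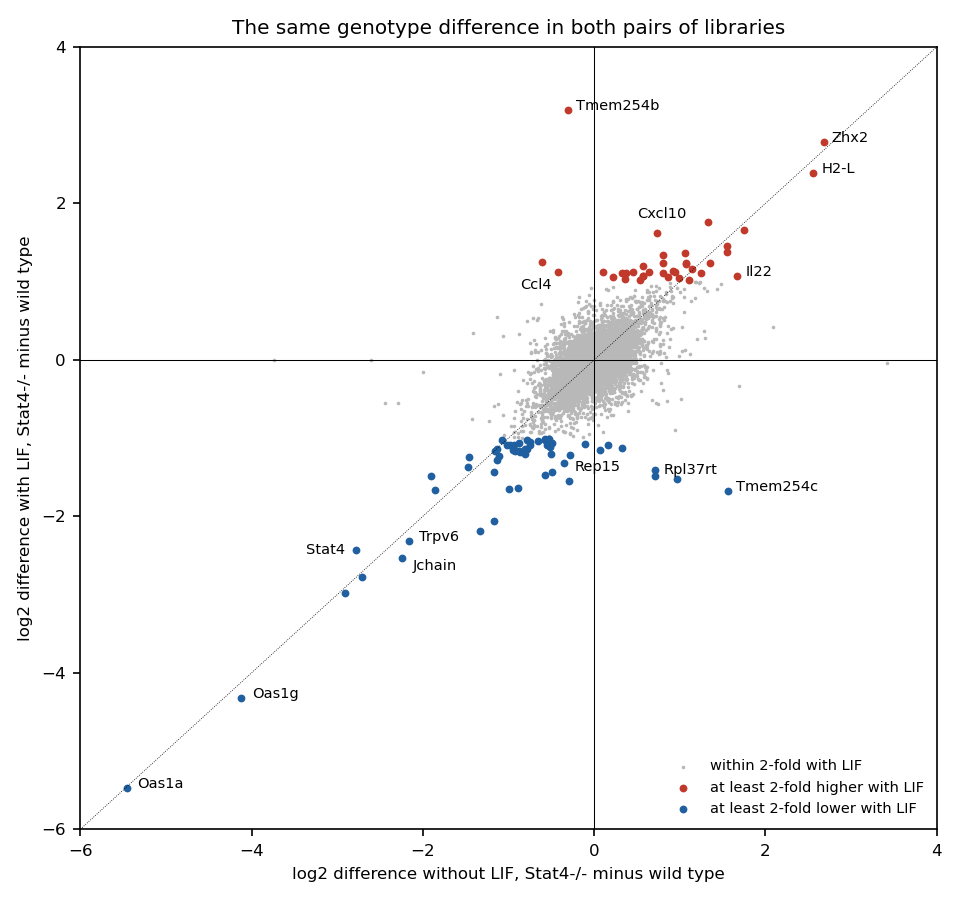
Log2 difference of Stat4-/- minus wild type for each of 12274 genes without LIF (across) and with LIF (upward). Red and blue points are the 36 and 56 genes at least 2-fold higher or lower with LIF, and the dotted line marks equal differences. Most coloured points lie on the same side of 0 on both axes, and Tmem254b, Ccl4, Rpl37rt and Tmem254c are among those that do not.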

How the data were processed

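Total RNA was turned into sequencing libraries with a TruSeq kit, per the labels' protocols. The submitters' processing notes name HISAT, Bowtie2 and the build mm10. For the expression program, its annotation and the versions, the sources used here give no name. The authors deposited FPKM values with 2 decimals, 1 column per group, per the file headers, and 0 value columns were left unused. A spreadsheet had turned 26 gene symbols into dates, and these were kept as listed.

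Compared genes had a 4-library mean of 1 FPKM or more, with a pseudocount of 1 FPKM, in Python 3.11.15 with pandas 2.3.3 and numpy 2.4.6; figures used matplotlib 3.10.9. Genes were counted at 1.5-fold and 2-fold on that scale. With 1 library per group there are 0 residual degrees of freedom, so no test was made. The counting was tested on simulated data. Depth was estimated from the steps that whole fragments leave in low FPKM values, which lay within 0.15 of a whole number in 61.9% (Stat4-/- LIF) and 70.5% (wild-type LIF) of 160 and 132 genes, so depths are approximate and cover counting error only. Positions, the share of 31-base words found in another listed gene and exon overlap were read from the mm10 annotation GENCODE M21, where 96.98% of compared symbols matched once. Strand use in counting is not stated.

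The comparison and its 54 gene lists were chosen with earlier results of these data known. Genes named were a set of STAT and LIF pathway genes, the 15 highest and 15 lowest above a mean of 5 FPKM (predicted genes and small RNAs left out), the 5 members of a list with the largest difference, and all members of the MHC, guanylate-binding, immunity-related GTPase, OAS, sex-linked and strain-variable lists. Other list members were named after their values were seen. The alternatives were pseudocounts of 0.1 and 5 FPKM, no expression limit or one of 5 FPKM, median-of-ratios and upper-quartile scaling, and leaving out genes with over 50% shared words.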

Additional observations from a re-analysis of the deposited data

Results flagged for a closer look

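Some values had opposite signs in the LIF pair and in the control pair, and with 1 library per group none of these contrasts was tested. The OAS list had a median difference of -0.20 with LIF and 0.21 without it, the glycolysis and hypoxia list -0.08 and 0.14, and the neutrophil list, with 3 compared genes, -0.22 and 0.06. Tmem254b had a difference of 3.20 with LIF and -0.31 without, but the 3 Tmem254 copies summed to 10.5 FPKM in Stat4-/- LIF and 9.23 FPKM in wild-type LIF, and to 10.6 FPKM in Stat4-/- control and 11.2 FPKM in wild-type control. Rpl37rt, of whose words 45.9% are shared, had -1.41 with LIF and 0.71 without. Ccl4 had 1.12 and -0.43, from levels between 0.62 and 2.52 FPKM, and the T cell receptor gene Cd3g had 0.36 and -0.48. The acute-phase gene Saa3 had -0.32 with LIF and 0.28 without, and the lactate exporter gene Slc16a3 -0.37 and 0.29.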

How the results depend on the processing

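No difference has a replicate check, and depth limits low genes most. The counts of 36 higher and 56 lower genes depended on the pseudocount and the expression limit. They were 87 and 118 with a pseudocount of 0.1 FPKM, 9 and 13 with 5 FPKM, and 17 and 25 with a mean of at least 5 FPKM (8838 genes). They stayed within 1.5 times with no expression limit, either scaling, and without genes of shared sequence. Of 378 shares of list members above 0 under the 7 alternatives, 369 stayed within the exact binomial interval of the share as reported. A pseudocount cannot change the sign of a difference, so 54 of the 369 at each pseudocount were fixed in advance. Genes of a list are not replicates, and the interval serves only as a limit of change, a wide one for short lists. The B and plasma cell share stayed within it at 7 of 9 as reported and 1 of 2 with a mean of at least 5 FPKM. Small proline-rich, OAS, antimicrobial and neutrophil lists changed from fewer to more members above 0, or the reverse, under at least 1 alternative. With a mean of at least 5 FPKM, the share above 0 was 100% for immunity-related GTPases and T and NK cells (1 gene), and 0% for neutrophil (1 gene), mast cell (3 genes) and red blood cell lists (3 genes). Under median-of-ratios scaling it was 100% for NF-kB and for unfolded protein genes. Without genes of shared sequence it was 100% for immunity-related GTPases (5 genes) and 0% for red blood cells (1 gene). Single-gene differences moved by over 0.1 in 85 cases of 316 with a pseudocount of 0.1 and in 147 with one of 5, and H2-Q6 and Ddx3x, both near 0, alone turned their sign under a scaling. No paired analysis was possible because each group has 1 library.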

Other observations

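Several genes at least 2-fold apart belong to none of the lists described above. Of the genes in no list, 4 enzyme genes are given as single values. The cytochrome P450 gene Cyp2d34 was at 19.2 FPKM in Stat4-/- LIF and 42.2 FPKM in wild-type LIF, the sulfotransferase gene Sult1b1 at 4.33 and 10.8 FPKM, the steroid dehydrogenase gene Hsd17b2 at 29.1 and 61.0 FPKM, and the retinol dehydrogenase gene Rdh16 at 1.41 and 4.32 FPKM. Each was also lower in Stat4-/- control than in wild-type control, with Cyp2d34 at 21.5 and 42.2 FPKM. Slc10a2, the apical bile acid transporter, was at 2.25 FPKM in Stat4-/- LIF and 5.94 FPKM in wild-type LIF, and at 2.65 and 6.19 FPKM without LIF. On the high side was the tight junction gene Cldn1, at 3.61 FPKM in Stat4-/- LIF and 1.10 FPKM in wild-type LIF, and at 2.41 and 0.80 FPKM without LIF. The chemokine receptor gene Ccr6 was at 2.50 and 0.60 FPKM with LIF but close without it, at 1.06 FPKM in Stat4-/- control and 0.92 FPKM in wild-type control. These genes were chosen after their values were seen.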
